A study of Mus musculus with 29 samples.

Results

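The comparison is of spinal cord gene expression in mice that lack the microRNA miR-128 and in wild-type mice, all of them sham-operated. It rests on 7 of the 29 libraries of the series, 4 from miR128KO Sham mice and 3 from WT Sham mice, chosen by their labelled genotype and treatment. The miR128KO mice are labelled as miR-128 global knock out on a C57BL6 background, and the labels do not say which of the miR-128 precursor genes was deleted. The WT mice are labelled Wild-Type (C57BL-6J). Every mouse of both groups had the sham procedure, and the thoracic and lumbar cord was taken at 4 h. Littermates were split between sham surgery and aortic cross clamping (ACC, a temporary closure of the aorta that cuts the blood supply of the lower cord), so the treatments share litters while the genotypes need not. Mice of either sex were used, each library is 1 mouse, and no age is given. Further groups at 4 h served for side-by-side values: 3 miR128KO ACC mice, 3 WT ACC mice, and 4 Sham mice of the MN-miR-155-KI line, here miR155KI Sham. Together with 5 miR155KI ACC mice, these groups were also in the fit that estimated the spread used by the tests.

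MicroRNAs are short RNAs that guide Argonaute proteins to messenger RNAs. Pairing between the microRNA's seed and a site in the 3′ UTR of a message generally lowers that message's level and translation, so targets of a deleted microRNA can be expected among messages that are higher in the knockout. miR-128 is abundant in neurons and is known in mouse brain for restraining neuronal excitability. It is made from a pair of precursors that lie within introns of the protein-coding genes R3hdm1 and Arpp21.

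The mature sequences are shown because the seed defines which messages can carry a canonical site. They are from RefSeq on GRCm38.p6, written 5′ to 3′ with the seed, bases 2 to 8, in capitals. Both precursors give the same 3p strand, and their 5p strands share a different seed.
miR-128-3p (Mir128-1 at chr1:128202404-128202424, plus strand, and Mir128-2 at chr9:112118644-112118664, minus strand): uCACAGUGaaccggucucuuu
miR-128-1-5p (chr1:128202369-128202389): cGGGGCCGuagcacugucuga
miR-128-2-5p (chr9:112118679-112118701): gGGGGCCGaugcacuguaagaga

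The 3p seed pairs with CACTGTG in a message. A match of all 7 letters followed by A, CACTGTGA, is called an 8mer here, CACTGTG alone a 7mer-m8 and ACTGTGA alone a 7mer-A1. These were searched on the transcript strand of GENCODE M21 3′ UTRs, and a gene was placed in the strongest class found, in that order. An 8mer was present in the 3′ UTR of 1070 of 20985 annotated genes, or 5.10%. The 30-base windows below hold the 8mers of 6 genes, chosen after their values were seen, whose levels did not overlap between miR128KO Sham and WT Sham, with CACTGTG in capitals.
Samd10 (chr2:181596533-181596562, minus strand): ccagaccccaaCACTGTGaccagagcccac
AI593442 (chr9:52675359-52675388, minus strand): aatggctaaggCACTGTGaaggagaatatc
Slc39a13 (chr2:91062729-91062758, minus strand): agagagaccgaCACTGTGacccctgggtgc
Pdxk (chr10:78440172-78440201, minus strand): aagcatgcggtCACTGTGacagggaccttt
Mafk (chr5:139800600-139800629, plus strand): gtctacctgccCACTGTGaaccctgcgggg
Elfn2 (chr15:78668158-78668187, minus strand): agaagaactacCACTGTGaaaatgagctag

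Before the values, 3 properties of the libraries bear on what follows. Total counts ran from 19240488 to 28495933 in miR128KO Sham and from 20710353 to 24052512 in WT Sham. First, sex nearly coincided with genotype. Xist, the RNA of the inactive X chromosome, had 0, 0.0722, 557 and 0.0434 CPM, the count after scaling every library to the same effective total, in miR128KO Sham mice 1 to 4, against 539, 531 and 537 CPM in WT Sham mice 1 to 3. The Y-linked helicase gene Ddx3y had 110, 101, 0 and 99.3 CPM in miR128KO Sham, and 0 counts in all 3 WT Sham libraries, where 3 counts would have been 0.125 to 0.145 CPM. One miR128KO Sham mouse and all WT Sham mice therefore expressed Xist, and in the ACC groups the numbers were 1 of 3 miR128KO and 3 of 3 WT mice.

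Second, the WT Sham mice differed among themselves in a mitochondrial segment. mt-Nd3, a subunit of respiratory complex I at positions 9459 to 9806 of the mitochondrial genome, had 83, 95, 66 and 74 counts in miR128KO Sham, against 1592, 690 and 72 counts in WT Sham. Gm28438, a nuclear copy on chromosome 1, ran the other way, with 1837, 2028, 1135 and 1403 counts in miR128KO Sham against 118, 759 and 1434 counts in WT Sham. mt-Nd3 held 4.32% to 5.50% of the summed counts of both in miR128KO Sham, and 93.1%, 47.6% and 4.78% in WT Sham 1 to 3. WT Sham mouse 3 was thus like the knockouts, mouse 2 lay midway, and mouse 1 was like all WT ACC and miR155KI mice, in which the share was 92.9% to 96.1%. The flanking tRNA genes behaved alike: mt-Tg had 0 counts in all 4 miR128KO Sham libraries against 34, 24 and 0 in WT Sham, and mt-Tr had 0, 1, 1 and 0 against 17, 20 and 1. Reads of a gene and its near-identical copy can be split by the counting, so these values are uncertain as expression.

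In addition, some of the genes known to differ between C57BL/6 substrains, Gabra2 and Ide with its neighbours, followed a related split. Gabra2, a GABA-A receptor subunit whose expression is reduced by an intronic deletion in C57BL/6J, had 158, 176, 118 and 162 CPM in miR128KO Sham, against 50.2, 124 and 162 CPM in WT Sham. WT ACC mice had 48.4 to 56.6 CPM and miR155KI Sham mice 47.7 to 49.7 CPM, so WT Sham mice 2 and 3 stood apart from the other WT mice. Ide, the insulin-degrading enzyme, had 50.8 to 59.4 CPM in miR128KO Sham against 106, 57.5 and 54.1 CPM in WT Sham. Its neighbours Btaf1 and Fgfbp3 were likewise highest in WT Sham mouse 1, at 47.9 and 11.2 CPM. Wdfy1 had 38.5, 15.8, 44.2 and 44.8 CPM in miR128KO Sham and 15.7, 29.2 and 61.7 CPM in WT Sham. Nnt, truncated in C57BL/6J, was low throughout, at 0.289 to 0.847 CPM in miR128KO Sham and 0.374 to 0.627 CPM in WT Sham. The part of sex, of the mitochondrial segment and of substrain in the differences below was not tested beyond the values given.

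**Figure D1:**
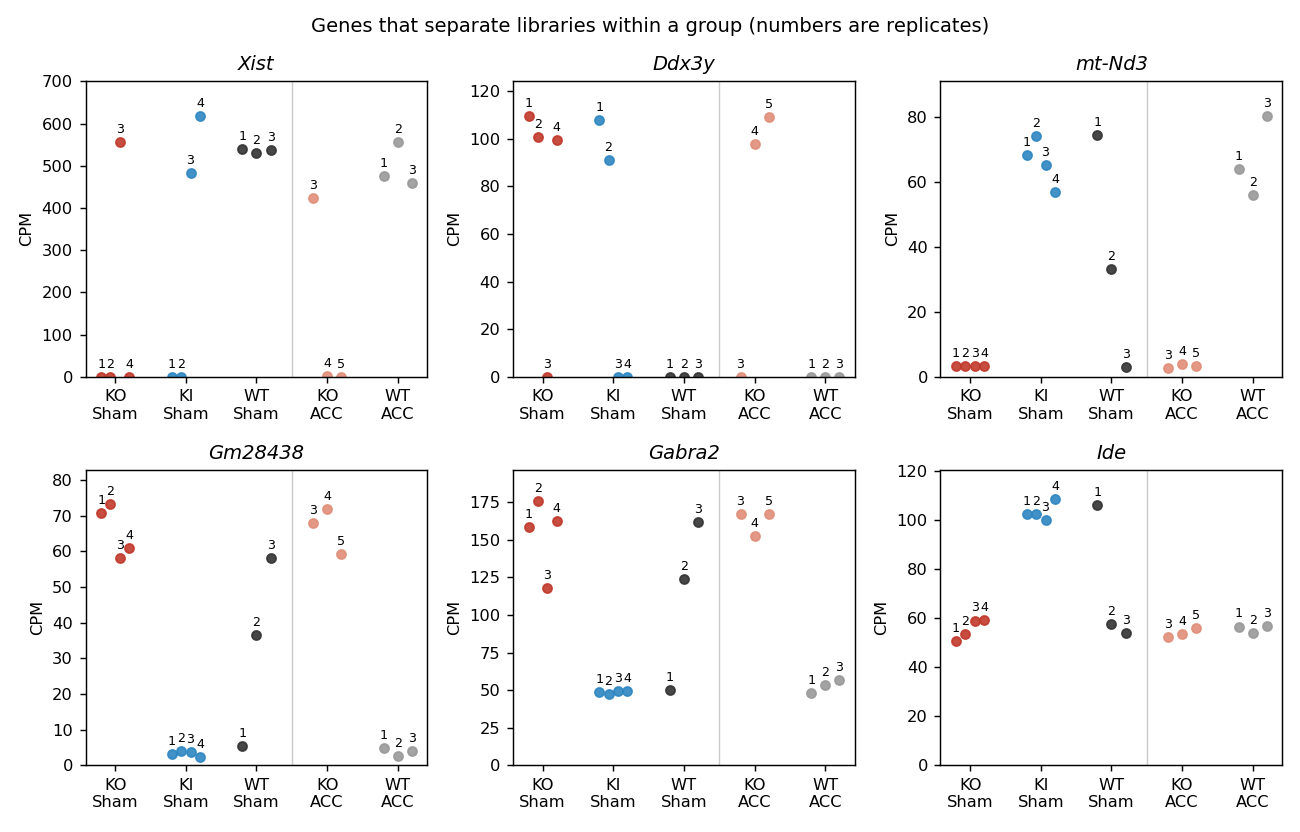
CPM of 6 genes in each library (points, with the replicate number above) of miR128KO (KO) Sham, miR155KI (KI) Sham, WT Sham, miR128KO ACC and WT ACC mice; each panel has its own linear scale from 0. Xist and Ddx3y show that 1 of 4 KO Sham and 3 of 3 WT Sham mice expressed Xist, and for mt-Nd3, Gm28438 and Gabra2 WT Sham mouse 1 sits with the KI and WT ACC mice while WT Sham mouse 3 sits with the KO mice.

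The knockout itself could not be checked in these poly-A libraries, which hold few precursor microRNA reads. Mir128-1 had 0 to 3 counts per 4 h library and Mir128-2 had 0. The host transcripts were present in both genotypes. R3hdm1, a protein with an R3H RNA-binding domain, averaged 73.3 ± 10.1 CPM in miR128KO Sham and 71.7 ± 4.53 CPM in WT Sham (SD, n = 4 and n = 3), a log2 fold change of 0.03 ± 0.10 (SE). Arpp21, a cAMP-regulated phosphoprotein, had 33.9, 38.3, 41.6 and 51.6 CPM in miR128KO Sham against 31.2, 32.7 and 35.5 CPM in WT Sham. The groups overlapped by 1 mouse, and the log2 fold change of 0.32 ± 0.13 did not pass the test (edgeR adjusted p = 0.725). Within 10 Mb of the hosts edgeR called no gene. At an unadjusted p under 0.05 there were 13 of 168 genes near R3hdm1 (7.74%) and 20 of 281 near Arpp21 (7.12%), beside 6.37% of all genes. One neighbour of R3hdm1, the intestinal lactase gene Lct, was called by DESeq2, the alternative tool (adjusted p = 0.028). It was low in all libraries, at 1.31, 1.59, 0.768 and 1.39 CPM in miR128KO Sham against 0.327, 0.0964 and 0.608 CPM in WT Sham. It was about as high in miR155KI Sham, at 0.779 to 1.23 CPM.

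Across the transcriptome the genotypes were close. edgeR's quasi-likelihood test with Benjamini-Hochberg adjustment called 0 of 19581 genes higher and 0 lower in miR128KO Sham at an adjusted p under 0.05 (0% called). At an unadjusted p under 0.05 there were 586 higher (2.99%) and 662 lower (3.38%) genes, 6.37% of those tested. At an unadjusted p under 0.001 there were 21 higher and 21 lower, 0.107% each and 0.214% together. The 2 groups did not overlap for 1645 genes, 8.40% of those tested, with 790 higher (4.03%) and 855 lower (4.37%) in miR128KO Sham. The smallest adjusted p was 0.062, for Samd10 and for mt-Tr. DESeq2 on the same 22 libraries was less strict and called 16 genes higher (0.0705%) and 8 lower (0.0353%), together 0.106% of the 22694 genes with an adjusted p. Of these 24 genes, 4 are Y-linked (Ddx3y, Uty, Kdm5d and Eif2s3y) and 3 belong to the mitochondrial segment. A fit of only the Xist-expressing Sham mice, added after the values were seen, compares miR128KO mouse 3 with the 3 WT mice. The other groups were kept for the spread, so the lone knockout is assumed to vary as they do.

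The genes described next were chosen after their values were seen: those called by DESeq2, and those with an unadjusted p under 0.001 in Sham mice or under 0.01 both in Sham and in ACC mice. No library is shared by the Sham and the ACC comparison, so the ACC values come from other mice, with the same imbalance of Xist. The ACC groups were also fully split in the mitochondrial segment. There mt-Nd3 held 3.71% to 5.10% of the summed mt-Nd3 and Gm28438 counts in miR128KO ACC, against 92.9% to 95.4% in WT ACC. Gabra2 was higher in miR128KO ACC by a log2 fold change of 1.62. The part of these differences in the ACC values was not tested.

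Samd10, which encodes a protein with a sterile alpha motif (chr2:181595218-181599212), had 30.9, 34.1, 32.3 and 31.6 CPM in miR128KO Sham against 19.7, 22.1 and 23.1 CPM in WT Sham. Every knockout was above every wild type, by a wide gap. The log2 fold change was 0.57 ± 0.10 (edgeR adjusted p = 0.062, DESeq2 adjusted p = 0.000108). In ACC mice Samd10 had 31.1, 33.0 and 26.4 CPM in miR128KO against 22.9, 24.1 and 21.6 CPM in WT, again without overlap, and its log2 fold change was 0.40 ± 0.11. Among Xist-expressing Sham mice alone it was 0.58 ± 0.15. Its 8mer begins 32 bases into a 3′ UTR of 1365 bases.

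Slc39a13, the zinc transporter ZIP13 (chr2:91061791-91070417), was the most even of these genes, at 38.3, 38.7, 39.5 and 38.3 CPM in miR128KO Sham against 28.7, 27.8 and 32.0 CPM in WT Sham. Its log2 fold change was 0.39 ± 0.08 in Sham mice (edgeR adjusted p = 0.194, DESeq2 adjusted p = 0.00475). In ACC mice it was 0.45 ± 0.09, with 34.8 to 38.9 CPM in miR128KO and 24.8 to 28.5 CPM in WT. Among Xist-expressing Sham mice it was 0.42 ± 0.13. In miR155KI Sham mice it was near the wild type, at 26.3 to 31.1 CPM, and miR128KO Sham was higher than miR155KI Sham by 0.43 ± 0.08 (edgeR adjusted p = 0.0111).

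AI593442, a gene known only by its clone name (chr9:52673042-52679780), had 145, 156, 144 and 153 CPM in miR128KO Sham against 123, 118 and 121 CPM in WT Sham. The log2 fold change was 0.31 ± 0.06 (edgeR adjusted p = 0.128, DESeq2 adjusted p = 0.000146). It did not carry over to ACC mice, where the log2 fold change was 0.09 ± 0.07 and the groups overlapped. Pdxk, the kinase that makes pyridoxal phosphate from vitamin B6, had 143, 150.2, 166 and 170.5 CPM in miR128KO Sham against 113, 142 and 114 CPM in WT Sham. WT Sham mouse 2 came within about 1 CPM of the lowest knockout. Its log2 fold change was 0.35 ± 0.09 in Sham and 0.28 ± 0.10 in ACC mice. Against miR155KI Sham, with 90.7 to 118 CPM, the difference was 0.57 ± 0.08 (edgeR adjusted p = 0.00176).

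Mafk, a small Maf transcription factor, had 45.4, 47.1, 47.0 and 53.2 CPM in miR128KO Sham against 36.1, 41.5 and 29.8 CPM in WT Sham. Its log2 fold change of 0.43 ± 0.13 was matched by 0.47 ± 0.14 in ACC mice, and neither passed edgeR's adjusted threshold. DESeq2 on the 7 Sham libraries alone, added after the values were seen, gave Mafk an adjusted p of 0.0373. Elfn2, a leucine-rich repeat protein of the neuronal surface that inhibits phosphatase 1, had 85.9, 91.5, 95.7 and 97.3 CPM in miR128KO Sham against 77.8, 73.8 and 75.7 CPM in WT Sham. The log2 fold changes were 0.29 ± 0.09 in Sham and 0.31 ± 0.10 in ACC mice. The groups did not overlap in Sham mice for either gene, but in ACC mice the lowest knockout for Elfn2, at 79.4 CPM, was below the highest wild type, at 81.2 CPM.

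**Figure D2:**
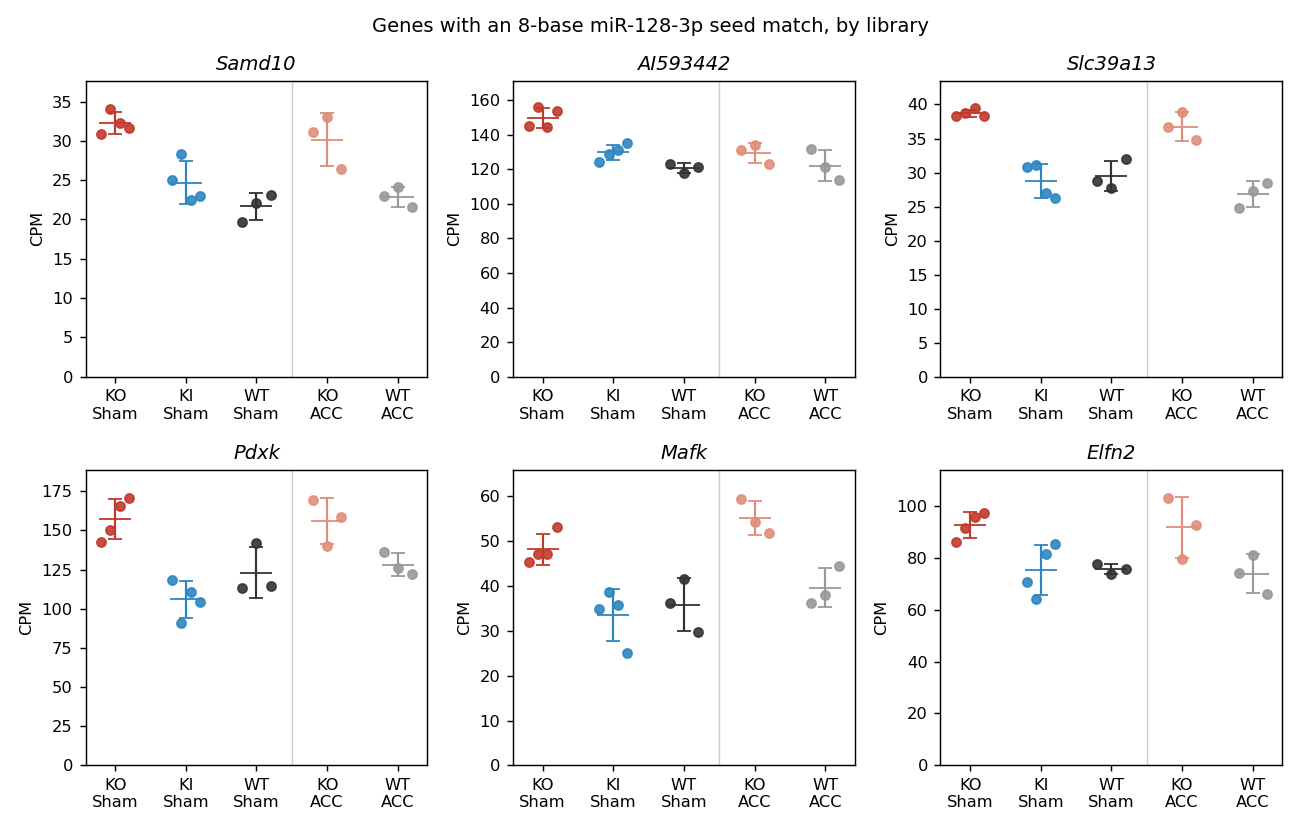
CPM per library (points) with the mean and SD of each group (bars) for 6 genes with an 8mer, in miR128KO (KO) Sham, miR155KI (KI) Sham, WT Sham, miR128KO ACC and WT ACC mice; axes are linear and start at 0. In all 6 panels every KO Sham mouse lies above every WT Sham mouse, and in KO ACC mice 4 of the genes are again without overlap against WT ACC mice, AI593442 and Elfn2 being the exceptions.

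Of the 13 genes with a 3′ UTR that were higher at an unadjusted p under 0.01 in both Sham and ACC knockouts, 5 held an 8mer, 38.5%, beside 5.87% of the 15580 tested genes with a 3′ UTR. Among the 19 higher genes with an unadjusted p under 0.001 in Sham mice it was 4, 21.1%, and among the 13 lower genes it was 0. At an unadjusted p under 0.01 in Sham mice it was 11 of 123 higher genes (8.94%) and 4 of 139 lower genes (2.88%). Genes with an unadjusted p under 0.05 in both comparisons counted 11 with an 8mer among 88 higher (12.5%) and 0 among 44 lower. These genes were ranked on the same fold changes, and a match is a description of the letters, not of binding. The sets share genes, such as Samd10 and Slc39a13, so their shares are not separate observations. The median 3′ UTR was 1953 bases for the 13 genes and 1137 bases for all 15580. Lower genes were not counted for the set of 13.

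Over the whole class the shift was slight. The 915 tested genes with an 8mer had a median log2 fold change of 0.02 in Sham mice, and 57.3% of them were above 0. The 2496 genes with a 7mer-m8 had a median of 0.00 and 50.5% above 0, the 1273 with a 7mer-A1 had 0.00 and 49.3%, and the 10896 with none had 0.00 and 48.5%. At an unadjusted p under 0.05 the 8mer class had 38 higher and 28 lower genes, 4.15% and 3.06%, against 2.82% and 3.74% of genes with none. In ACC mice the 8mer class showed no such shift, with 49.4% of its genes above 0 against 52.7% of genes with none. A shift in the other direction was seen without the knockout. In miR155KI Sham against the same WT Sham mice, 43.8% of 8mer genes were above 0, against 51.0% of genes with none. UTR length differs between the classes, with a median of 2392 bases for 8mer genes and 814 for genes with none. By quartile of length, from the shortest UTRs to the longest, the share of genes higher at an unadjusted p under 0.05 was 2.17%, 2.84%, 3.29% and 5.15% with an 8mer, against 2.73%, 2.70%, 2.66% and 3.49% with none. The share of lower genes was 6.52%, 2.13%, 3.70% and 2.68% with an 8mer, against 3.22%, 3.59%, 4.13% and 4.53% with none. The shortest quartile held 46 genes with an 8mer.

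**Figure D3:**
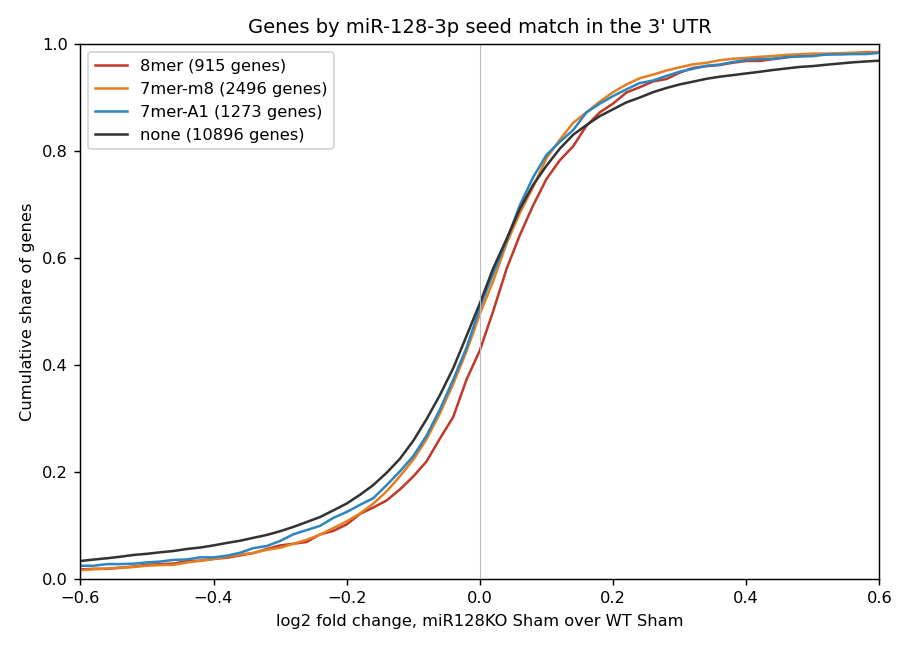
Cumulative share of genes (y axis) at or below each log2 fold change of miR128KO Sham over WT Sham (x axis), for genes grouped by the strongest miR-128-3p seed match in their 3′ UTR. The 8mer curve (915 genes) runs to the right of the others around 0, where 57.3% of its genes are positive against 48.5% of genes with none, and the differences are small beside the spread of the genes.

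Of 27 genes reported elsewhere as miR-128 targets, all were tested and 0 passed. Their median log2 fold change was 0.02, beside 0.00 over all genes, with 16 above 0 and 11 below. At an unadjusted p under 0.05 only E2f3, a cell cycle transcription factor, was higher, at 23.9, 22.5, 22.99 and 20.98 CPM in miR128KO Sham against 18.5, 17.6 and 20.7 CPM in WT Sham. Abcg1, a cholesterol exporter, was lower at that level, with 46.9, 52.9, 45.3 and 55.8 CPM in miR128KO Sham against 63.4, 57.7 and 62.0 CPM in WT Sham. Upf1, the helicase of nonsense-mediated decay, was lower too, by a log2 fold change of -0.16 ± 0.07. Pea15a and Snap25, the most abundant of the list, were at 0.15 ± 0.09 and -0.07 ± 0.09. Szrd1, whose 3′ UTR holds 4 8mers within 2761 bases, was at -0.04 ± 0.09. The ERK pathway, which miR-128 restrains in mouse striatum, had a median of 0.00 over 30 genes, with Rasgrf1 at 0.04. The microRNA machinery had a median of -0.02 over 13 genes, with Ago1 at -0.13 and Tnrc6a at -0.06, and 0 of 13 reached an unadjusted p under 0.05.

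Other genes differed as repeatably without an 8mer. Rnf169, a ubiquitin-binding protein of DNA repair sites, had 40.7, 45.3, 46.8 and 49.2 CPM in miR128KO Sham against 28.1, 34.6 and 28.7 CPM in WT Sham. Its log2 fold change was 0.58 ± 0.13 in Sham mice (edgeR adjusted p = 0.27, DESeq2 adjusted p = 0.0363) and 0.58 ± 0.14 in ACC mice. Against miR155KI Sham, at 23.5 to 32.7 CPM, the difference was 0.74 ± 0.12 (edgeR adjusted p = 0.00447). Tiparp, an ADP-ribosyltransferase induced by the aryl hydrocarbon receptor, had 42.4, 51.0, 43.3 and 50.2 CPM in miR128KO Sham against 33.6, 34.7 and 28.6 CPM in WT Sham. Its log2 fold changes were 0.53 ± 0.13 in Sham and 0.67 ± 0.13 in ACC mice, and 0.71 ± 0.12 against miR155KI Sham (edgeR adjusted p = 0.00372). Both genes separated knockouts from wild types in both treatments.

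Grin2d, an NMDA receptor subunit with a 7mer-m8, had 43.2, 43.5, 47.7 and 53.5 CPM in miR128KO Sham against 33.2, 37.3 and 33.2 CPM in WT Sham. The log2 fold changes were 0.44 ± 0.10 in Sham and 0.51 ± 0.11 in ACC mice. Sox4, a transcription factor of immature neural cells, had 19.1, 24.6, 26.4 and 14.7 CPM in miR128KO Sham against 7.20, 12.9 and 9.12 CPM in WT Sham. Its log2 fold changes were 1.12 ± 0.28 in Sham and 0.88 ± 0.29 in ACC mice. Polr3e, a subunit of RNA polymerase III, had 248, 260, 234 and 228 CPM in miR128KO Sham against 95.8, 148 and 169 CPM in WT Sham. Its wild-type values were spread more than its knockout values, with WT Sham mouse 1 lowest as for Gabra2. Prkcd, a protein kinase C isoform, and Sgpp1, a sphingosine 1-phosphate phosphatase, were at 0.29 ± 0.10 and 0.25 ± 0.07 in Sham mice and at 0.42 ± 0.11 and 0.20 ± 0.07 in ACC mice.

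**Figure D4:**
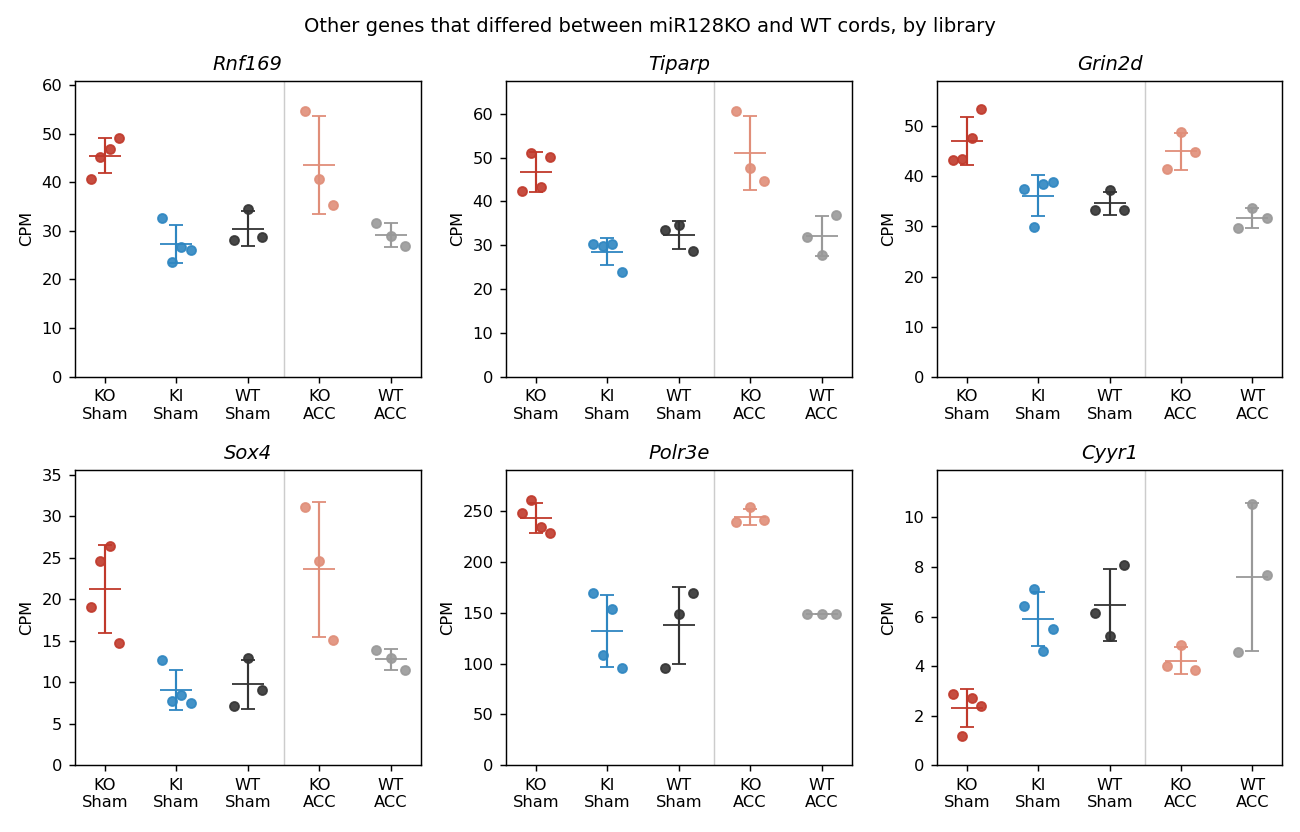
CPM per library (points) with the mean and SD of each group (bars) for Rnf169, Tiparp, Grin2d, Sox4, Polr3e and Cyyr1, in miR128KO (KO) Sham, miR155KI (KI) Sham, WT Sham, miR128KO ACC and WT ACC mice; axes are linear and start at 0. KO Sham mice lie above WT Sham mice for the first 5 genes and below them for Cyyr1, and the KO ACC mice lie on the same side of the WT ACC mice except for 1 overlapping mouse in Cyyr1.

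A few genes differed in Sham mice and hardly in ACC mice. Maff, another small Maf factor, had 8.86, 11.7, 9.22 and 5.43 CPM in miR128KO Sham against 4.07, 3.66 and 3.85 CPM in WT Sham, a log2 fold change of 1.19 ± 0.26 (DESeq2 adjusted p = 0.00182), beside 0.42 ± 0.24 in ACC mice. Nes, the intermediate filament of neural progenitors and vessels, had 33.2, 30.7, 30.6 and 29.3 CPM in miR128KO Sham against 17.7, 21.5 and 15.7 CPM in WT Sham. Micall2, a junctional adaptor protein, had 6.16, 6.25, 7.68 and 4.04 CPM in miR128KO Sham against 2.48, 2.27 and 3.20 CPM in WT Sham. For Nes the log2 fold changes were 0.76 ± 0.19 in Sham and 0.34 ± 0.20 in ACC mice, and for Micall2 they were 1.18 ± 0.27 and 0.33 ± 0.27. The test of the difference between ACC and Sham called 0 genes, with 752 at an unadjusted p under 0.05 (3.84%).

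Among the lower genes, Cyyr1, a membrane protein, had 2.89, 1.19, 2.71 and 2.39 CPM in miR128KO Sham against 6.12, 5.21 and 8.06 CPM in WT Sham. Its log2 fold change was -1.50 ± 0.30 in Sham (DESeq2 adjusted p = 0.00163) and -0.84 ± 0.31 in ACC mice. Crb2, a polarity protein of the apical membrane, had 4.12, 2.63, 2.51 and 3.65 CPM in miR128KO Sham against 5.75, 7.52 and 6.85 CPM in WT Sham. Lrp2, the endocytic receptor megalin, had 3.81, 2.63, 2.25 and 2.30 CPM in miR128KO Sham against 4.72, 5.50 and 5.55 CPM in WT Sham. The log2 fold changes were -1.05 ± 0.21 for Crb2 and -0.93 ± 0.22 for Lrp2 in Sham mice, and -0.46 ± 0.24 and -0.56 ± 0.24 in ACC mice. In each of the 3 genes every knockout was below every wild type.

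The direction in ACC mice was counted for all genes. Of the 42 genes with an unadjusted p under 0.001 in Sham mice, 37 had the same sign in ACC mice (88.1%), beside 54.5% of all 19581 genes. By direction it was 20 of 21 higher and 17 of 21 lower genes. Of the 304 genes under 0.01, 219 had the same sign (72.0%). The ACC groups also differed in Xist, the mitochondrial segment and Gabra2, as above, so a shared sign is not tied to miR-128 alone. miR128KO ACC against WT ACC alone called 1 gene higher (0.00511%), the nuclear copy Gm28438, and 0 lower, with 1219 at an unadjusted p under 0.05 (6.23%). The contrast averaged over Sham and ACC mice, added after the values were seen, called 10 higher and 6 lower genes (0.0817%). Among the higher were Slc39a13 (edgeR adjusted p = 0.00176), Samd10 (0.00195), Tiparp (0.00251), Grin2d (0.00333) and Rnf169 (0.00805), with Gm28438, Kank1, Grp, Gabra2 and Prkcd. The lower were mt-Tr, mt-Nd3, mt-Tg, Lrmda, Gm10591 and Cyyr1. miR128KO Sham against miR155KI Sham, which shares the knockout libraries, called 18 higher and 11 lower genes (0.148%). Xist was present in 2 of 4 miR155KI Sham mice.

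The cord's own cell types were present in both genotypes. The 13 neuronal genes summed to 9405 to 11170 CPM in miR128KO Sham and 9933 to 10908 CPM in WT Sham, and their median log2 fold change was 0.02, with Snap25 at -0.07 and Nefm at -0.01. The 18 caudal Hox genes tested, which mark lower cord levels, had a median of -0.05, with Hoxb8 at 0.11 and Hoxb9 at 0.06, and the 10 rostral Hox genes had -0.04, with Hoxb5 at -0.13 and Hoxb6 at 0.03. The 12 astrocyte genes had a median of 0.04, with Slc1a2 at 0.04 and Gfap at 0.05. None of these lists held a gene past edgeR's adjusted threshold, and this was so for all 36 lists; DESeq2 called Maff, Grin2d, mt-Nd3 and the Y-linked Ddx3y, Eif2s3y, Kdm5d and Uty. The counts below are at an unadjusted p under 0.05, for which the background was 2.99% of genes higher and 3.38% lower.

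Of the 36 lists, neuropeptides had the most genes that were higher at this threshold. Of 22 tested, 5 were higher and 0 lower, 18 were above 0, and the median was 0.21 in Sham and 0.33 in ACC mice. Penk, the enkephalin precursor, had 206, 212, 171 and 211 CPM in miR128KO Sham against 158, 167 and 156 CPM in WT Sham. Its log2 fold change was 0.32 ± 0.11 in Sham and 0.38 ± 0.11 in ACC mice, but 0.10 ± 0.16 among Xist-expressing Sham mice. Grp, the gastrin-releasing peptide of itch circuits, had 13.7, 11.6, 11.4 and 13.1 CPM in miR128KO Sham against 10.01, 9.88 and 8.39 CPM in WT Sham. Cck, Nts and Uts2 were at 0.34, 0.28 and 0.47, and their groups overlapped, while Sst, the second most abundant, was at 0.02.

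The oligodendrocyte lineage lay slightly higher in the knockouts. All 13 myelin genes were above 0, with 2 at the unadjusted threshold and medians of 0.14 in Sham and 0.16 in ACC mice. Mbp, the myelin basic protein gene, had 17780 to 21970 CPM in miR128KO Sham and 15410 to 19000 CPM in WT Sham. Of 8 precursor genes 3 were higher. Olig2, a lineage transcription factor, had 100.1, 142, 107 and 70.5 CPM in miR128KO Sham against 58.5, 70.3 and 65.9 CPM in WT Sham, a log2 fold change of 0.69 ± 0.24, but -0.02 in ACC mice. Olig1 was at 0.28 ± 0.10, Enpp6 at 0.30 ± 0.12 and Bcas1 at 0.01. In whole cord, a change in the number of cells of a type and a change in RNA per cell cannot be told apart.

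Synaptic and channel lists had small medians. Of 32 glutamate signalling genes 27 were above 0, with a median of 0.10 in Sham and -0.04 in ACC mice. Their summed level was 2954 to 3197 CPM in miR128KO Sham and 2842 to 2883 CPM in WT Sham, without overlap. Grin2d, above, and Shank3, a postsynaptic scaffold at 0.23 ± 0.10, were the 2 at the unadjusted threshold, and Dlg4 and Camk2b were at -0.04 and 0.01. GABA and glycine signalling had a median of 0.04 over 29 genes with 1 higher, and Abat was at 0.01. Potassium channels had 0.05 over 35 genes with 2 higher and 1 lower, with Kcnj10 at -0.05 and Kcnab2 at -0.08. Sodium and calcium channels had 0.06 over 28 genes with 2 higher, with Hcn2 at -0.06 and Scn4b at -0.13.

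Motor neuron genes had a median of 0.11 over 14 genes, with 10 above 0, 4 below and 2 higher at the threshold. Their summed level overlapped, at 667 to 770 CPM in miR128KO Sham and 613 to 699 CPM in WT Sham. Slc5a7, the choline transporter of cholinergic terminals, had 98.0, 114, 104 and 101 CPM in miR128KO Sham against 77.7, 81.7 and 87.7 CPM in WT Sham, and its log2 fold change was 0.34 ± 0.09 in Sham but 0.09 ± 0.10 in ACC mice. Tns1, a focal adhesion protein, was at 0.24 ± 0.08 and Ret at 0.08 ± 0.10. Chat, the defining enzyme, was at 0.22 ± 0.19 and its groups overlapped. Isl1, the lowest of the list, was at -0.33 ± 0.30.

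Immediate early genes had a median of 0.15 over 26 genes in Sham mice and 0.22 in ACC mice, with 3 higher and 0 lower. These were Maff, Fosl2 at 0.29 ± 0.12 and Atf3, which had 2.43, 5.31, 2.92 and 1.65 CPM in miR128KO Sham against 1.31, 1.64 and 1.42 CPM in WT Sham. Jund was at 0.34 ± 0.20 and Jun at 0.16 ± 0.22. Knockout mouse 2 was the highest of the 7 for Maff, Atf3, Fosl2, Fos, Egr1, Jun and Jund, among others. Clock and glucocorticoid-responsive genes had a median of 0.03 over 25 genes, with Sgk1 at 0.05 and Mt1 at 0.00, and 1 higher and 1 lower. Heat shock proteins had 0.04 over 14 genes, with Hspa8 at -0.04 and Hsp90aa1 at 0.07, and 1 higher. Cholesterol and lipid genes had 0.09 over 20 genes, with Scd2 at 0.11 and Scd1 at 0.14, and 1 in each direction.

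Ependymal genes, which build the ciliated lining of the central canal, were the list with the largest share of lower genes. All 10 were below 0, 4 were at the unadjusted threshold, and the median was -0.39 in Sham and -0.08 in ACC mice. For 5 of the 10 the groups did not overlap, beside 4.37% of all genes that were lower without overlap. Their summed level was 52.4 to 72.3 CPM in miR128KO Sham and 74.1 to 81.7 CPM in WT Sham. Ccdc153, a coiled-coil protein of ciliated cells, had 8.78, 7.11, 5.17 and 6.17 CPM in miR128KO Sham against 10.9, 9.59 and 8.83 CPM in WT Sham. Dnah12, an axonemal dynein heavy chain, had 4.89, 1.62, 0.768 and 1.61 CPM in miR128KO Sham against 5.24, 5.69 and 7.66 CPM in WT Sham. The lineage factor Foxj1 differed less, at 19.1 to 27.7 CPM in miR128KO Sham and 26.1 to 28.6 CPM in WT Sham, and Ccdc39 was at -0.12 ± 0.13. Knockout mouse 3, the one with Xist, was the lowest of the 7 for Ccdc153 and Dnah12.

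In Sham mice the same side was seen in gene families that hold ciliary genes, taken by symbol alone after these values were known. The families overlap the ependymal list, Dnah12 being in both, and the libraries are the same. Of 66 tested Dnah, Cfap, Rsph, Tekt and Spag genes, 57 were below 0, 14 were lower at the unadjusted threshold and 0 were higher. The median was -0.31 in Sham and -0.11 in ACC mice. By family, the ACC medians were -0.25 for Dnah, -0.15 for Cfap and -0.07 for Spag, but 0.31 for Rsph and 0.25 for Tekt. Among single genes with an unadjusted p under 0.001, Ccdc170, Lrrc43, Nme9 and Daw1, all low-abundance genes of motile cilia, had log2 fold changes of -1.63, -1.60, -1.48 and -1.27. Nme9 had 1.12, 0.939, 0.410 and 0.347 CPM in miR128KO Sham against 2.10, 1.78 and 2.15 CPM in WT Sham.

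Vascular and meningeal genes were also mostly below 0. Of 13 endothelial genes 12 were below 0, with a median of -0.37 in Sham and -0.23 in ACC mice and 1 at the unadjusted threshold. That was Tek, the angiopoietin receptor, with 3.39, 2.09, 3.89 and 3.17 CPM in miR128KO Sham against 5.14, 5.69 and 6.60 CPM in WT Sham. Cldn5, the tight junction claudin, had 9.05, 5.05, 6.35 and 4.78 CPM in miR128KO Sham against 10.2, 7.71 and 12.96 CPM in WT Sham, and the groups overlapped. Slc2a1 and Mfsd2a, the most abundant, were at -0.10 and 0.08. Pericyte and smooth muscle genes had a median of -0.04 over 10 genes, with Rgs5 at -0.18, Cspg4 at 0.17 and 0 at the threshold. All 12 meningeal and fibroblast genes were below 0, with a median of -0.45 in Sham and -0.38 in ACC mice and 1 at the threshold, Aldh1a2. Their summed level overlapped, at 536 to 743 CPM in miR128KO Sham and 636 to 782 CPM in WT Sham. Ptgds, the prostaglandin D synthase of the meninges, had 421 to 488 CPM in miR128KO Sham and 517 to 550 CPM in WT Sham, whereas Col1a2 varied from 34.1 to 89.5 CPM in miR128KO Sham and from 38.9 to 74.0 CPM in WT Sham.

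Immune genes gave small and mixed values. Of 23 interferon-stimulated genes 21 were below 0, with medians of -0.22 in Sham and -0.21 in ACC mice and 2 lower at the threshold, Oasl2 and Ifitm3. Their summed level was 170 to 181 CPM in miR128KO Sham and 188 to 203 CPM in WT Sham, while Stat2 and Ifi27 were at -0.11 and -0.06. Homeostatic microglial genes had a median of -0.07 over 16 genes with 2 lower, P2ry13 and Sall1, and Csf1r was at 0.17. P2ry13, a purinergic receptor, had 5.43, 6.28, 6.45 and 8.60 CPM in miR128KO Sham against 10.9, 10.2 and 9.97 CPM in WT Sham. Chemokine ligands and receptors had a median of -0.16 over 22 genes with 1 higher and 3 lower. Cx3cl1 and Cxcl14 were at -0.06 and -0.08. Monocyte and macrophage genes had -0.11 over 8 genes with 1 higher, with F13a1 at 0.24 and Cd74 at -0.28, and antigen presentation genes had -0.06 over 13 with 1 higher, with H2-D1 at 0.01 and B2m at 0.07.

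Tissues that can come with a dissection varied widely between libraries of the same genotype. Schwann cell and dorsal root ganglion genes summed to 7.34 to 210.1 CPM in miR128KO Sham and 5.74 to 237 CPM in WT Sham, with a median log2 fold change of -0.34 over 5 genes. Prx, the periaxin of peripheral myelin, was at 0.695 to 29.0 CPM in miR128KO Sham and 0.627 to 33.2 CPM in WT Sham. Blood cell genes had a median of 0.67 in Sham and -0.64 in ACC mice over 10 genes. Hbb-bs was at 61.0 to 193 CPM in miR128KO Sham and 84.4 to 113 CPM in WT Sham, and Hba-a1 followed it. Skeletal muscle genes had 0.01 over 10 genes, with Pvalb at -0.02 and Acta1 at 0.03. The 5 adipose genes, with Fabp4 and Cfd the most abundant, summed to at most 6.55 CPM in miR128KO Sham and at most 1.88 CPM in WT Sham. None of these 4 lists held a gene at the unadjusted threshold.

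Of 9 sex-linked genes, 3 were higher and 2 lower at the unadjusted threshold. The X-linked demethylase genes Kdm6a and Kdm5c were lower, at -0.59 ± 0.21 and -0.45 ± 0.20. Ddx3x had 320, 327, 433 and 316 CPM in miR128KO Sham against 428, 427 and 384 CPM in WT Sham, so that the one knockout with Xist lay with the wild types. The 13 protein-coding mitochondrial genes had a median of 0.02, with mt-Co1 and mt-Cytb at 0.09 and 0.10, mt-Nd3 lower and mt-Nd6 higher at the unadjusted threshold, at 0.25 ± 0.11. With the mitochondrial tRNA and rRNA genes, 12 of 32 tested were at that threshold in either direction (37.5%, beside 6.37% of all genes). The substrain list had a median of 0.00 over 11 genes, with Cyfip2 at 0.02 and 1 lower, Ide.

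**Figure D5:**
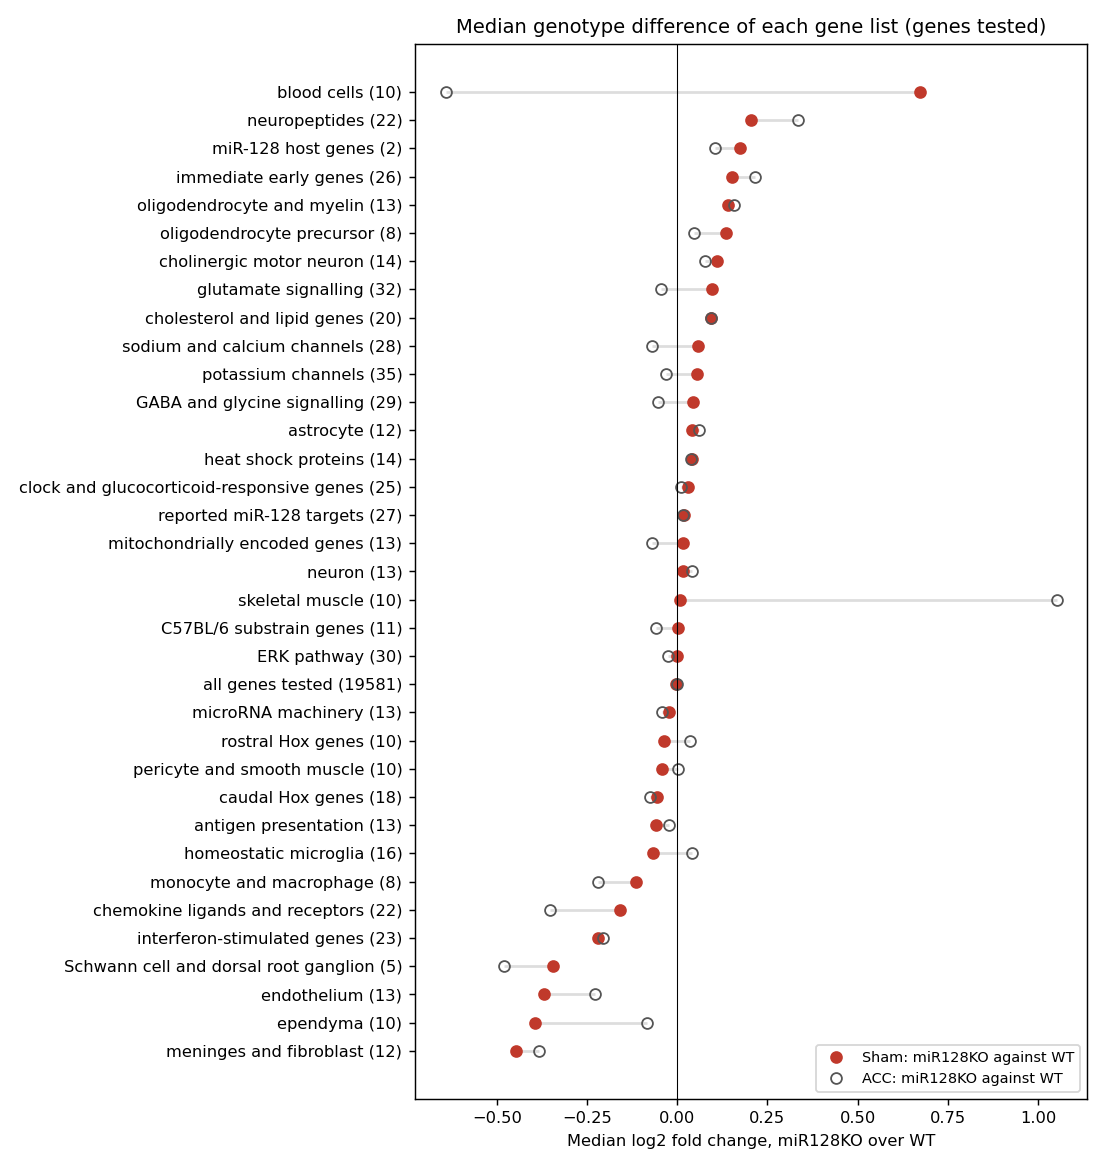
Median log2 fold change of miR128KO over WT for each gene list (number of genes tested in brackets) in Sham mice (filled points) and in ACC mice (open points), with all genes tested among the rows. The adipose list, whose summed level was low, and the sex-linked list, which follows the sex of the mice, are left out. The open point farthest right is skeletal muscle. In Sham mice the medians run from -0.45 for meningeal genes, with ependymal and endothelial genes next, to 0.67 for blood cell genes, which lie at -0.64 in ACC mice, and neuropeptide genes stand at 0.21 and 0.33.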

How the data were processed

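The authors deposited raw read counts, whole numbers for 54532 genes in each library. The submitters' processing notes name fastp for read cleaning, HISAT2 (2.0.5) for alignment, featureCounts (1.5.0-p3) for counting and the build GRCm38/mm10. Per the labels' protocols, libraries were poly-A selected and directional (dUTP). The annotation release and the strand setting of the counting are not given in the sources used here. It is therefore unknown whether reads of a gene and of its antisense partner were counted apart.

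Counts of 22 libraries at 4 h were normalized with TMM and filtered with filterByExpr (minimum count 10). miR128KO ACC library 1 was left out, as in the study. Contrasts among 6 groups were tested with edgeR 4.0.16 (R 4.3.3) quasi-likelihood F tests (16 residual degrees of freedom, common biological coefficient of variation 0.141) and Benjamini-Hochberg adjustment over 19581 genes, with a threshold of 0.05; the code was tested on simulated data. Standard errors (SE) are the absolute log2 fold change over the root of F. CPM use TMM library sizes, and floors of 3 counts cover counting error only. DESeq2 1.42.0 was the alternative tool.

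Genes are named by 3 rules. The first, the largest changes past the threshold, gave none. The next always names R3hdm1, Arpp21, Gabra2, Ide, Btaf1, Fgfbp3, Nnt, Wdfy1, Xist and Ddx3y, and the last takes the 2 most abundant members of each of 36 lists where none passed; some of these are not reported here. Further genes are said to be chosen after their values were seen, as were list members named for an unadjusted p. The members and lists were chosen with earlier results of these data known. Seed matches were searched in the annotated 3′ UTRs of GENCODE M21 (GRCm38), and microRNA sequences are from RefSeq (GRCm38.p6). Wild-type and knockout libraries are separate mice, but litters are not given per mouse.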

Additional observations from a re-analysis of the deposited data

Results flagged for a closer look

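In the 4 miR128KO Sham mice, 8 of 188 genes examined had 1 mouse far from the other 3, where chance alone flags about 5% of such groups. In mouse 3, Xist was at 557 CPM against at most 0.0722 CPM in the other knockouts, Ddx3y and Eif2s3y were at 0 CPM against 99.3 to 110 CPM and 36.6 to 40.5 CPM, and Ddx3x was at 433 CPM against 316 to 327 CPM. In the same mouse Penk was at 171 CPM against 206 to 212 CPM, and Prx was at 29.0 CPM against 0.695 to 5.09 CPM. In mouse 1, Cfd was at 1.73 CPM against 0.0869 to 0.325 CPM. In mouse 2, Tle3 was at 117 CPM against 85.7 to 89.9 CPM.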

How the results depend on the processing

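Over the genes named, 3797 gene and setting pairs were labelled as the same and 95 as newly past the threshold. A further 20 were labelled as moved and 10 as reversed, and the reversed pairs are named below. These labels do not cover every change of sign. For example, Cd74 was below 0 in the main fit but at 0.326 without WT Sham mouse 3. Jun was above 0 in the main fit but at -0.0216 with only the Xist-expressing knockout. The calls of miR128KO Sham against WT Sham were 0 higher and 0 lower with RLE or upper quartile scaling, with a mean CPM of at least 1, with Ddx3y as a covariate and in edgeR fits of the 11 or the 7 Sham libraries. They were 16 higher and 8 lower with DESeq2, 38 and 25 with DESeq2 on the 7 libraries alone, 1 and 2 without a filter, 7 and 6 against the mean of WT and miR155KI Sham, 10 and 6 averaged over Sham and ACC, and 1 higher (Rag1) with only the Xist-expressing knockout. Leaving out 1 library gave 0 higher and 0 to 3 lower, the 3 being mt-Nd3, mt-Tg and mt-Tr without WT Sham mouse 3. With the replicate number as a block 3 genes were higher, Maff, Micall2 and Samd10, and 0 lower. Same-numbered mice had correlations of 0.0541, -0.0980 and 0.0926 over 15653 genes, and the other pairs ran from -0.0925 to 0.131. So few pairs cannot settle whether same-numbered mice were paired, and the main fit assumed no pairing. For miR128KO ACC against WT ACC the calls were 5 higher and 6 lower with library 1 kept, 18 and 10 with DESeq2, 5 and 3 without a filter, 2 and 2 at a mean CPM of at least 1, 2 and 1 with Ddx3y as a covariate, 2 lower with upper quartile scaling, and 0 higher with the replicate block. Leaving out 1 library gave 0 to 1 higher and 0 lower; the call was lost without each WT ACC mouse and without miR128KO ACC mouse 3 or 5. The difference between ACC and Sham had 0 to 2 higher genes, 2 without WT Sham mouse 1. Without WT Sham mouse 1 the sign of the log2 fold change turned, and among the fits that left out 1 library the lowest value was that without WT Sham mouse 3, for Aim2 (0.0894, lowest -0.833), Btaf1 (0.00897, lowest -0.467), Fgfbp3 (0.121, lowest -0.464) and Ide (0.00164, lowest -0.552). Averaged over Sham and ACC it changed for Cfd (-0.513), Hba-a1 (-0.0870), Hbb-bs (-0.0753) and Hoxb5 (0.0174). Ddx3x changed to 0.141 with Ddx3y as a covariate and to 0.0708 with only the Xist-expressing knockout. The cause of these changes was not tested.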
